A study of Mus musculus with 10 samples.

Results

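The comparison described here is that of ribosome footprints in mouse embryonic stem cells after a short exposure to DMDA-PatA with footprints in cells without an inhibitor. It set the 2 DMDA-PatA against the 2 control ribosome profiling libraries among the 10 samples of the series. Its members were the coding transcripts with a mean control value of at least 100 normalized footprints on the open reading frame (ORF), which were 8532 of the 14534 coding transcripts listed. The members were thus chosen on the control libraries alone. They were described by how much of their control footprints they kept relative to the median member, gene family by gene family and by the layout of the transcript.

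DMDA-PatA, desmethyl, desamino-pateamine A, is an analog of the marine natural product pateamine A and binds the RNA helicase eIF4A. In cap-dependent initiation, eIF4E binds the cap, eIF4G is the scaffold, and eIF4A, helped by eIF4B, unwinds the 5' UTR so that the small ribosomal subunit can load and scan to the start codon. Pdcd4 is an inhibitor of eIF4A, and the 4E-binding proteins keep eIF4E from eIF4G. Ribosomes that have already started can leave a coding sequence while new ones fail to load, and footprints that remain after a brief block can come from ribosomes that still start, that stall or that have not yet run off.

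All libraries came from CGR8 cells, an established embryonic stem cell line of strain 129, grown without feeders on gelatin with leukemia inhibitory factor. DMDA-PatA was given at 1 µM for 10 min, and the control cells carried the same amount of the solvent DMSO without an inhibitor. Both groups were chilled and lysed with cycloheximide, and nuclei and most mitochondria were spun out before RNase digestion. Libraries with harringtonine at 2 µg/ml for 10 min and puromycin at 0.2 mg/ml for 20 min entered the read filter and the fits. Otherwise they are used below only for values side by side. The study's methods call the 2 libraries of a condition biological replicates, but no source used here says how the cultures were separated. The p-values thus measure the spread between libraries of a condition, shared over the 4 conditions.

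The control libraries held 9104220 and 10614247 reads on coding ORFs and the DMDA-PatA libraries 618334 and 748665, so that a median member had 29 and 33 reads in the 2 DMDA-PatA libraries. The replicates differed by more than sampling noise, with a chi-square per degree of freedom of 9.15 for the control and 2.37 for DMDA-PatA. All 12 embryonic stem cell markers were members, with summed control values of 56078 and 53024. None of the 5 listed primitive endoderm markers was a member (sums of 137 and 89.7), and 1 of the 4 neural markers, Nes, was. The 4 mesoderm markers were members with sums of 1264 and 1366. The 4 fibroblast markers summed to 20858 and 15807, mostly Col1a1 at 16909 and 12975, and their part in the results was not tested.

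On the spike-in scale, 8531 of the 8532 members had fewer footprints with DMDA-PatA (edgeR quasi-likelihood test, adjusted p below 0.05). This hardly set members apart, since 99.3% of the 12499 transcripts tested fell. None of the members rose, also at an unadjusted p below 0.05 and with DESeq2, against 0.056% of all tested. The median member kept 3.58% of its mean control footprints in the first and 5.29% in the second DMDA-PatA library, a median inhibition of 27.9 and 18.9 fold. Which pair of spike-in factors belongs to DMDA-PatA and which to harringtonine differs among the study's own files and was not settled. The deposited values were kept, with a median log2 change of -4.49 over the members, and the exchanged factors gave -4.28. The exception was Hist1h2bn, a histone H2B gene, which kept 61.1% (edgeR adjusted p = 0.11).

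Members differed widely around this median. In the following, relative remaining footprints are the fraction of the mean control value that remained with the drug, divided by the median of this fraction over all members, so that 1 is the median member. The middle 50% of members lay between 0.624 and 1.61, 5% were below 0.321 and 5% above 3.15. Ranks were much alike in the 2 DMDA-PatA libraries, with a Spearman correlation across members of 0.857. Both libraries were divided by the same control mean, and members are not independent replicates.

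**Figure D1:**
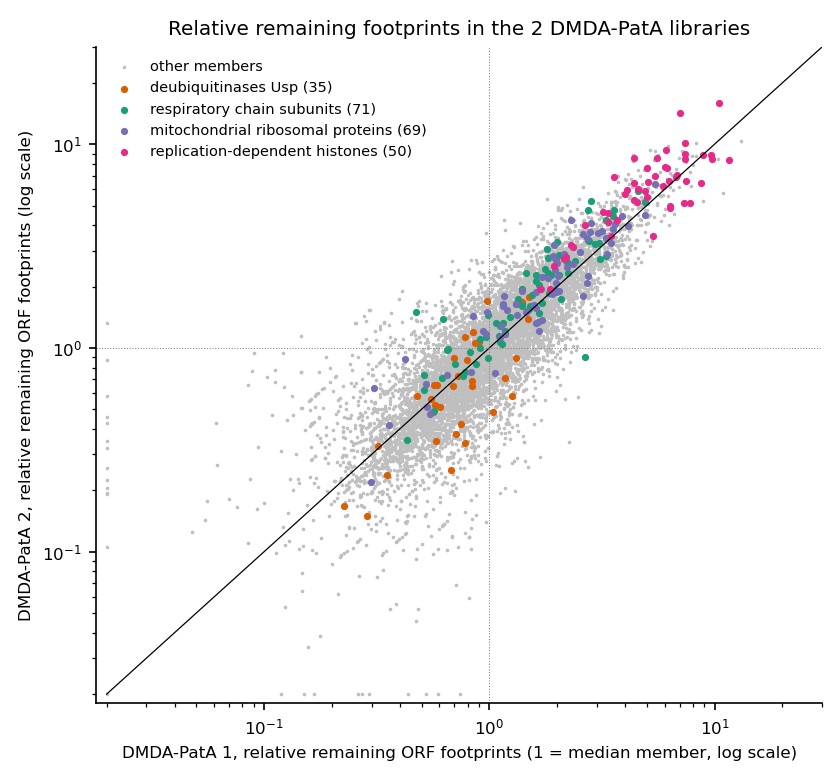
Relative remaining ORF footprints of the 8532 members in DMDA-PatA library 1 (x axis, log scale) and library 2 (y axis, log scale), each divided by the library's median so that 1 is the median member; 4 gene lists are coloured, the line marks equal values, and members without a read in library 1 (14) or library 2 (11) are drawn at the left or lower edge. Histone transcripts lie at the upper right, between 1.83 and 13.7 in the mean of both libraries.

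Relative to the median coding transcript, 2227 members (26.1%) kept more and 1958 (22.9%) kept fewer footprints (edgeR quasi-likelihood test, adjusted p below 0.05). Over all transcripts tested these shares were 25.2% and 16.2%. Both DMDA-PatA libraries lay above both controls in 3374 members (39.5%, against 41.0% of all tested) and below both in 3362 (39.4%, against 32.8%). The counts depended on single libraries and on the centring. Without the second DMDA-PatA library they were 1450 and 1155. Scaling to the median-of-ratios factors of DESeq2 gave 1737 higher and 2585 lower, and TMM gave 1603 and 2816. These scalings moved the median member by -0.19 and -0.27 on the log2 scale, and equal total reads by -0.13, so a relative change below these sizes has no firm direction.

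The 5 families with the highest medians were replication-dependent histones, selenoproteins, mitochondrial import proteins, mitochondrial ribosomal proteins and the Lsm and exosome subunits. Among the families with at least 5 members, microRNA machinery, growth and survival mRNAs, Usp deubiquitinases and the Sox, Fox, Hox and Klf factors had the lowest. Against members in the same bin of 5' UTR and coding length, these 4 came in this order to 0.890, 0.701, 0.770 and 0.997. Of the 47 gene lists with members, 18 had a median above 1. Under every planned setting 12 lists stayed above 1 and 20 below it. The list medians are descriptions without a test, and the counts of members called in each list stand against the 26.1% higher and 22.9% lower of all members. Both shares changed with the control level. From the lowest to the highest quintile of the first control library, 6.68% to 42.5% of members were lower and 29.8% to 19.9% higher. The shares of all members are thus no matched background for lists with high or low control values.

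**Figure D2:**
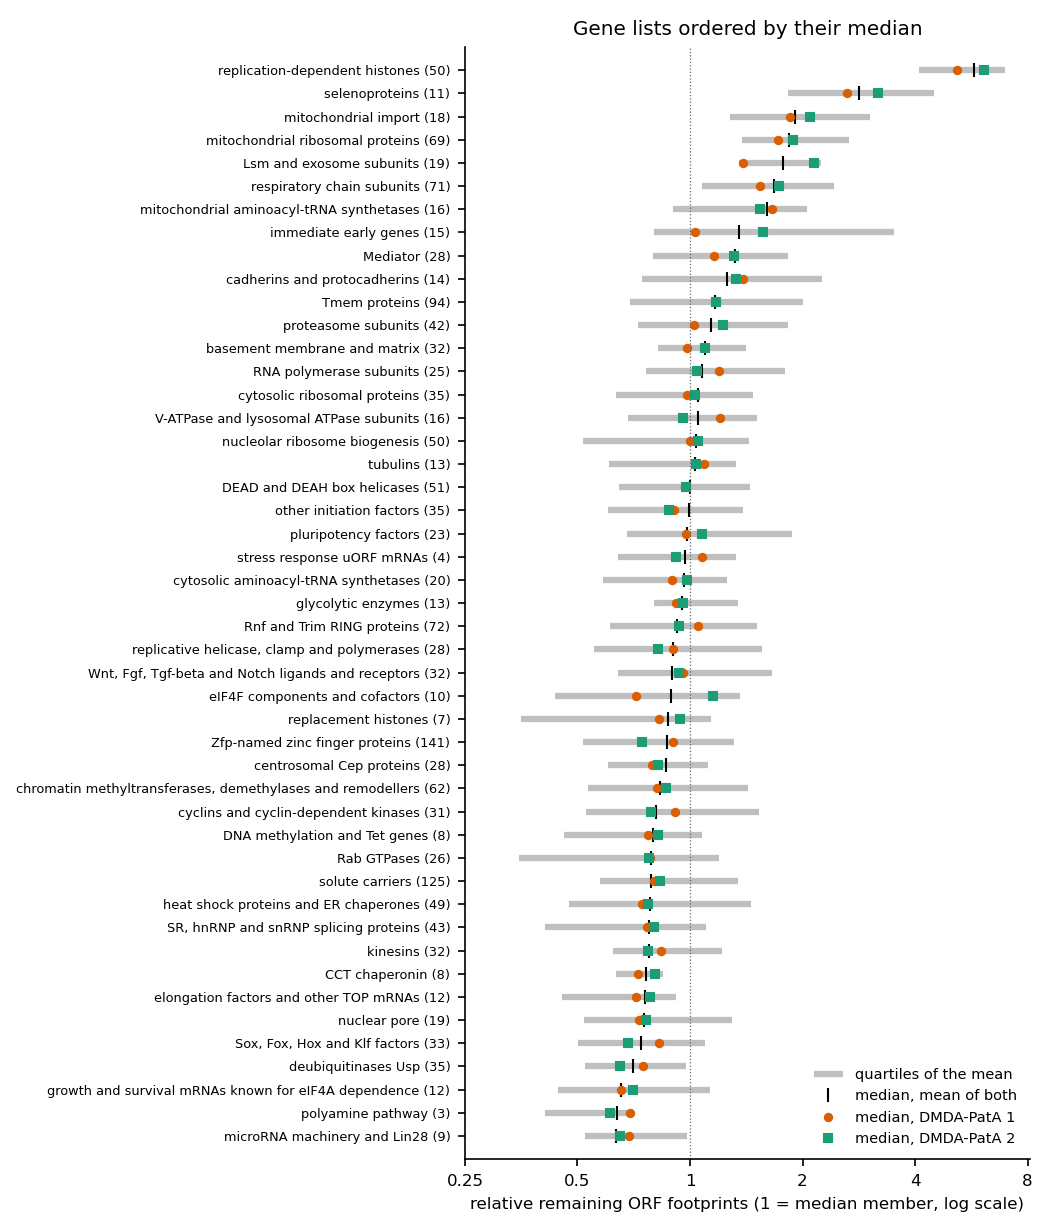
Median relative remaining ORF footprints (x axis, log scale, 1 = median member) of 47 gene lists, ordered by their median, with 1 point for each DMDA-PatA library, a black tick for the mean of both and a grey bar from its lower to its upper quartile. Histones stand at 5.18 and 6.13 in the 2 libraries, and the next list, selenoproteins, at 2.63 and 3.18.

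Replication-dependent histones, whose short intronless mRNAs end in a stem loop in place of a poly(A) tail and supply new chromatin, kept the most. All 50 members of this list were higher than the median coding transcript, with a median of 5.75 (5.18 and 6.13 in the 2 libraries) and a spike-in inhibition of only 3.89 fold. Each histone class shared this: the medians were 7.45 for H3 (8 members), 6.35 for H2A (12), 5.98 for H2B (14), 5.35 for H4 (10) and 3.32 for the linker histone H1 (6). By contrast, 7 replacement histones, which are made outside S phase from spliced and polyadenylated mRNAs, had a median of 0.871, with 1 higher and 2 lower. Their layout also differed, with a median 5' UTR of 319 nt. Against members in the same bin of 5' UTR and coding length they came to 0.627.

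The histone Hist1h2bn (ENSMUST00000091709, chromosome 13 of GRCm38, 21754123 to 21754503, 1 exon, no listed 5' UTR) carried 178 and 182 normalized ORF footprints in the control and 67.5 and 153 with the drug. Its values with the drug lay below those of the control, yet its log2 change relative to the median coding transcript was 3.72 ± 0.25 (SE, edgeR adjusted p = 2.2e-09). Hist2h3b, an H3 gene, had 864 and 804 in the control and 210 and 627 with the drug. For Hist1h4n, an H4 gene, the values were 2763 and 1808 against 943 and 1015. At the low end of the family, Hist1h2af had 991 and 750 against 52.4 and 90.1, a relative log2 change of 0.87 ± 0.20. Of the replacement histones, H2afy, which encodes macroH2A, fell furthest, by 2.15 ± 0.23 (edgeR adjusted p = 6.0e-07), with 1792 and 1624 against 16.4 and 17.0. Histone genes are near-identical copies, and reads that matched the genome more than once had been discarded by the authors, so that values of single histone genes rest on the parts that differ and are uncertain. Histone transcripts were also short in both regions, with a median 5' UTR of 37.5 nt and a median coding sequence of 385.5 nt. Against members in the same bin of 5' UTR and coding length their median was 2.74.

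Nuclear-encoded mitochondrial proteins formed the next group. Mitochondrial ribosomal proteins, which build the ribosome of the organelle, had a median of 1.84 over 69 members, with 45 higher and 6 lower. Subunits of the respiratory chain had 1.68 over 71 members, with 39 higher and 5 lower. Import proteins of the inner and outer membrane had 1.91 (18 members, 12 higher, 2 lower), and mitochondrial aminoacyl-tRNA synthetases, which charge the tRNAs of the organelle, 1.60 (16 members, 9 higher, 2 lower). The shares of members called higher were thus 65.2% of the mitochondrial ribosomal proteins and 54.9% of the respiratory chain, against 26.1% of all members. No mitochondrially encoded mRNA was listed.

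Within the respiratory chain, complex I stood highest at 2.11 (34 members), followed by complex IV at 1.54 (11), complex III with cytochrome c at 1.52 (9), complex II at 1.42 (4) and ATP synthase at 1.25 (13). The highest member was Cox8a, a small subunit of cytochrome c oxidase, with 4190 and 3586 footprints in the control and 639 and 1211 with the drug (relative log2 change 2.39 ± 0.28, edgeR adjusted p = 1.2e-06). The lowest was Ndufs1, the largest subunit of complex I, with 3372 and 3065 against 49.9 and 60.1 (-1.36 ± 0.23, adjusted p = 8.7e-05). Large and small subunits of the mitochondrial ribosome were alike, at 1.83 (43 members) and 1.96 (26). Mrps18c of the small subunit had 106 and 114 against 21.5 and 37.3 (2.55 ± 0.28), whereas Mrpl55 of the large subunit had 803 and 731 against 8.21 and 8.93 (-1.96 ± 0.28). Tomm5, of the outer membrane translocase, had 141 and 70.7 against 24.0 and 40.6 (2.79 ± 0.37).

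These families also differ from the median member in layout, with median 5' UTRs of 62 nt for mitochondrial ribosomal proteins and 96 nt for the respiratory chain, against 158 nt for all members, and coding sequences of 576 and 423 nt against 1435.5 nt. Against members in the same bin of both lengths, mitochondrial ribosomal proteins came to 1.12, the respiratory chain to 0.955 and import proteins to 1.21. Mitochondrial aminoacyl-tRNA synthetases, with a median 5' UTR of 162.5 nt and coding sequence of 1612.5 nt, stayed at 1.54.

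Selenoproteins, in which a UGA codon is read as selenocysteine, had a median of 2.83 over 11 members (2.63 and 3.18 in the 2 libraries), with 8 higher and 1 lower, and 1.75 within their length bins. Gpx1, a glutathione peroxidase, had 1454 and 1813 footprints in the control and 326 and 769 with the drug (relative log2 change 2.84 ± 0.26, edgeR adjusted p = 6.6e-08). The member that fell was Txnrd1, the cytosolic thioredoxin reductase, with 3055 and 3005 against 58.7 and 77.1 (-0.98 ± 0.19, adjusted p = 3.1e-04).

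Immediate early genes, which are transcribed within minutes of a stimulus and have short-lived mRNAs, were uneven. Their median was 1.35 over 15 members, but 1.03 in the first and 1.57 in the second library, with 6 higher and 3 lower. Btg2, an antiproliferative gene, had 462 and 517 against 74.5 and 175 (2.45 ± 0.25), whereas Jun, a subunit of the AP-1 transcription factor, had 1214 and 979 against 8.84 and 18.7 (-1.86 ± 0.25, edgeR adjusted p = 8.5e-06). Lsm proteins and exosome subunits, which take part in RNA processing and decay, had a median of 1.77 over 19 members that also moved between libraries, from 1.39 to 2.14. Of these, 11 were higher and 2 lower, Lsm12 at 286 and 295 against 56.8 and 142 being the highest and Lsm14a at 1148 and 1088 against 12.6 and 21.1 the lowest. Against members in the same bin of 5' UTR and coding length, the median of this list was 1.14.

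The translation machinery itself lay near the median. The 35 cytosolic ribosomal proteins that were members, of 79 listed, had a median of 1.05, with 8 higher and 9 lower. As for histones, reads with multiple matches had been discarded, so that these values rest on reads that match once. Whether this kept other listed ribosomal proteins below the threshold was not tested. Their median 5' UTR was 78 nt and their median coding sequence 456 nt, and against members in the same length bins they came to 0.593. Initiation factors outside eIF4F had 0.996 over 35 members, with 8 higher and 12 lower. Among these, Eif2s3x, the gamma subunit of eIF2, was the highest at 196 and 517 against 89.0 and 162 (2.91 ± 0.37), and Eif5, which triggers GTP hydrolysis on eIF2, the lowest at 1253 and 930 against 10.7 and 18.7 (-1.73 ± 0.26, edgeR adjusted p = 2.9e-05). Cytosolic aminoacyl-tRNA synthetases had a median of 0.962 (20 members, 4 higher, 6 lower).

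Elongation factors and other mRNAs with a terminal oligopyrimidine (TOP) motif, which marks many mRNAs of the translation machinery, had a median of 0.760 with 0 of 12 members higher (edgeR, also 0 at an unadjusted p below 0.05 and with DESeq2) and 3 lower. The share lower was 25%, against 22.9% of all members. Control values of this list were high, with a median of 5126. In the highest quintile of the first control library 42.5% of members were lower, so the share of all members is no matched background here. The lowest was Pabpc1, the cytoplasmic poly(A)-binding protein, with 7091 and 6851 against 54.3 and 82.0 (-2.19 ± 0.21, edgeR adjusted p = 1.2e-07). Of the cytosolic CCT chaperonin, 0 of 8 members were higher (edgeR, also 0 at an unadjusted p below 0.05 and with DESeq2) and 3 lower, around a median of 0.760. Its lowest subunit, Cct8, had 15936 and 13671 footprints in the control and 232 and 312 with the drug.

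The target of the drug and its partners did not move together. The listed transcript of Eif4a1, the main eIF4A gene in many tissues, was no member, with 15 and 6 control reads. Eif4a2, its paralog, kept many footprints, with 1496 and 1095 in the control and 166 and 280 with the drug (relative log2 change 1.94 ± 0.20, edgeR adjusted p = 2.6e-07). So did Eif4a3, the helicase of the exon junction complex, with 1573 and 1830 against 118 and 183 (0.98 ± 0.20, adjusted p = 6.5e-04). Both are listed with short 5' UTRs, of 33 and 18 nt, but the listed Eif4a3 coding sequence, of 895 nt, was not located in the annotation. The scaffold Eif4g1, with a 5' UTR of 325 nt, fell, with 14664 and 13433 against 172 and 217 (-1.66 ± 0.20, adjusted p = 2.3e-06).

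The inhibitor Pdcd4 also fell, with 782 and 676 against 6.94 and 16.2 (-1.53 ± 0.31, edgeR adjusted p = 5.5e-04). Eif4ebp2, a 4E-binding protein, had the lowest value of the list, at 657 and 623 against 6.94 and 8.12 (-1.90 ± 0.31). For the cofactor Eif4b, 6070 and 5290 stood against 279 and 439 (0.50 ± 0.18, adjusted p = 0.030), and this call was lost without any 1 of the 4 libraries and under all 3 other scalings. Cap-binding Eif4e rested on few reads, with 130 and 101 against 3.16 and 7.31, and did not differ from the median coding transcript (adjusted p = 1.0). Over the 10 members among the eIF4F components and cofactors the median was 0.891, but 0.715 in one library and 1.15 in the other, with 3 higher and 4 lower.

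Several families of regulatory proteins lay below 1. Splicing proteins of the SR, hnRNP and snRNP groups had a median of 0.778 over 43 members, with 5 higher and 17 lower. The hnRNPs, which package nascent transcripts, were the lowest at 0.647 (17 members), with 0.731 in the first and 0.392 in the second library. Hnrnpab had 17939 and 16403 footprints in the control and 143 and 194 with the drug (-2.17 ± 0.20, edgeR adjusted p = 8.9e-08), while Sf3b4, a subunit of the SF3b complex, rose relative to the median at 203 and 291 against 32.8 and 91.7 (2.41 ± 0.28). Heat shock proteins and ER chaperones had 0.781 over 49 members, with 11 higher and 20 lower, Hsph1 at 3581 and 3557 against 25.3 and 32.5 being the lowest.

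Usp deubiquitinases, which remove ubiquitin, had a median of 0.703 over 35 members, with 2 higher and 14 lower. Usp37 was the lowest, at 1070 and 949 against 8.21 and 8.93 (-2.36 ± 0.28). For Rab GTPases, switches of vesicle traffic, the median was 0.788 with 3 higher and 12 lower of 26. They ranged from Rab2b at 107 and 126 against 13.3 and 21.9 (1.73 ± 0.29) to Rab9 at 358 and 287 against 0.631 and 2.44 on 1 and 3 reads (-3.28 ± 0.51). Zinc finger proteins named Zfp had a median of 0.869 over 141 members, with 22 higher and 38 lower, and solute carriers, the transporters of the plasma and organelle membranes, 0.786 over 125, with 16 higher and 36 lower. The highest transcript counted with the solute carriers, Slc7a6os, is named for its place opposite Slc7a6 and is not a transporter.

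Growth and survival mRNAs that are known for a dependence on eIF4A were among the lists with low medians, at 0.653 over 12 members, with 2 higher and 6 lower. Mcl1, an anti-apoptotic protein, kept more than the median (3319 and 2534 against 257 and 456, 1.43 ± 0.30, edgeR adjusted p = 6.8e-04). Odc1, the first enzyme of polyamine synthesis, kept less (272 and 302 against 0.631 and 4.06, on 1 and 5 reads, -2.55 ± 0.51, adjusted p = 4.8e-04). Their 5' UTRs are of 136 and 410 nt.

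Of the proteasome subunits, the 16 members of the core particle, which cuts proteins, had a median of 1.47, with 7 higher and 3 lower, and the 21 of the regulatory particle, which binds and unfolds them, 0.974, with 7 higher and 5 lower. The quartiles of the core, 1.09 and 1.94, overlapped with those of the regulatory particle, 0.819 and 1.80, and the difference was not tested. Both extremes were regulatory subunits: Psmd6 had 3830 and 3355 against 386 and 554 (1.56 ± 0.19) and Psmd14, the deubiquitinase of the lid, 2104 and 1736 against 17.1 and 10.6 (-2.54 ± 0.28, edgeR adjusted p = 8.4e-07). Over the whole list of 42 members, 14 were higher and 10 lower.

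Pluripotency factors, the transcription factors and other genes that keep embryonic stem cells undifferentiated, were near the median as a list, at 0.984 over 23 members, yet ranged from 0.215 to 3.23, with 8 higher and 5 lower. Esrrb, a nuclear receptor, had 5244 and 4292 footprints in the control and 536 and 842 with the drug (relative log2 change 1.69 ± 0.19, edgeR adjusted p = 7.3e-07). Pou5f1 (Oct4; chromosome 17, 35506018 to 35510772, 5 exons) had 5404 and 5757 against 515 and 881 (1.46 ± 0.20, adjusted p = 1.1e-05), and Dppa5a 12298 and 11931 against 842 and 1304 (0.98 ± 0.20, adjusted p = 4.8e-04). Lin28a and Utf1 were higher by 0.78 and 0.76, but lost this call without the first control library, without the second DMDA-PatA library and with TMM.

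Other core factors did not differ from the median or fell below it. Nanog had 3992 and 3319 against 98.5 and 181 (-0.24 ± 0.21, edgeR adjusted p = 0.38) and Sox2 3222 and 3585 against 108 and 127 (-0.35 ± 0.20, adjusted p = 0.16). With TMM and with median-of-ratios factors, Sox2 passed the test as lower, at -0.62 and -0.55. For Klf4 and Tdgf1 the relative log2 changes were -0.49 ± 0.31 and -0.60 ± 0.43, neither past the test. Lower were Sall4 (-1.28 ± 0.18), Zfp42, also known as Rex1 (-1.52 ± 0.21), and Klf5, which had 2841 and 2790 against 20.8 and 33.3 (-2.22 ± 0.22, adjusted p = 2.0e-07). The list split by 5' UTR length: the 11 members with under 100 nt had a median of 1.44, the 5 with 100 to under 200 nt one of 1.77, and the 7 with 200 nt or more one of 0.674, with 0 of these 7 higher (edgeR, also 0 at an unadjusted p below 0.05 and with DESeq2). Among DNA methylation and Tet genes, 3 of 8 were lower and 0 higher (0 with DESeq2, 1 at an unadjusted p below 0.05), and the de novo methyltransferase Dnmt3b was the lowest, at 2993 and 3262 against 42.9 and 47.9 (-1.59 ± 0.25).

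The length of the 5' UTR was the layout feature that went most with the drug. Median relative remaining footprints were 1.64 for 5' UTRs under 25 nt (464 members), 1.80 from 25 nt to under 50 nt (696), 1.40 from 50 nt to under 100 nt (1456) and 0.977 from 100 nt to under 200 nt (2495). Longer 5' UTRs stayed level. Their medians were 0.736 from 200 nt to under 300 nt (1492 members), 0.708 from 300 nt to under 500 nt (1285), 0.720 from 500 nt to under 1000 nt (561) and 0.735 from 1000 nt on (83). The share of members called higher went from 59.3% in the bin that starts at 25 nt to 11.9% in the bin that starts at 500 nt, and the share called lower from 4.17% to 36.4%. In fold inhibition on the spike-in scale, this was 12.4 fold in the bin from 25 nt and 31.6 fold in the bin from 300 nt. The ratio of the medians under 50 nt and from 200 nt on was 2.40, with 2.17 and 2.60 in the 2 libraries. Members outside all gene lists showed the same fall, with 1.81 in the bin from 25 nt (545 members) and 0.717 in the bin from 300 nt (1075).

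**Figure D3:**
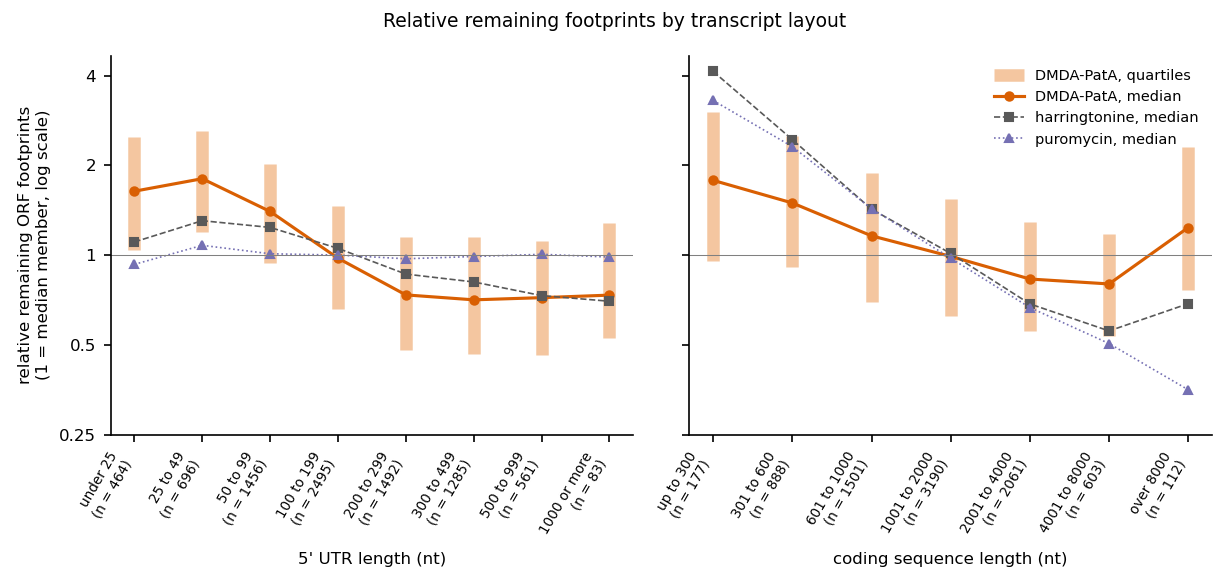
Median relative remaining ORF footprints (y axis, log scale, 1 = median member) by bins of 5' UTR length (left, nt) and coding length (right, nt) for DMDA-PatA with bars from quartile to quartile, and medians for harringtonine and puromycin. DMDA-PatA falls from 1.80 to 0.708 along the 5' UTR, while puromycin stays between 0.931 and 1.08 there and falls with coding length.

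Coding length went with the drug less steeply. Medians were 1.78 for coding sequences up to 300 nt (177 members), 1.496 for longer ones up to 600 nt (888), 1.16 up to 1000 nt (1501), 0.991 up to 2000 nt (3190), 0.832 up to 4000 nt (2061) and 0.801 up to 8000 nt (603), each bin starting where the one before it ends. Members extreme in both lengths differed most. Those with a 5' UTR under 100 nt and a coding sequence up to 300 nt had a median of 2.55 (66 members, 50 higher and 0 lower in edgeR, with 0 lower also at an unadjusted p below 0.05 and with DESeq2). Those with at least 200 nt and a coding sequence over 4000 and up to 8000 nt had one of 0.674 (306 members, 26 higher, 138 lower). Within coding sequences over 1000 and up to 2000 nt the median still went from 1.44 under 100 nt of 5' UTR to 0.715 from 200 nt on.

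Coding sequences over 8000 nt broke this order. Their median was 1.24 over 112 members, with 44 higher and 20 lower, and it depended on the 5' UTR as elsewhere, at 2.17 under 100 nt (34 members), 1.35 for 100 to under 200 nt (31) and 0.896 from 200 nt on (47). Ahnak, a giant scaffold protein with a coding sequence of 16968 nt and a 5' UTR of 257 nt (chromosome 19, 8989284 to 9019196), was the highest. Its footprints were 3412 and 1514 in the control and 727 and 1326 with the drug (relative log2 change 3.23 ± 0.28, edgeR adjusted p = 3.0e-08), so that the controls themselves differed by more than the second DMDA-PatA library did from the second control. Kmt2d, a histone H3 lysine 4 methyltransferase with a coding sequence of 16764 nt, had 2268 and 2077 against 508 and 686 (2.64 ± 0.21). Fat4, an atypical cadherin of 14943 nt, had 239 and 114 against 34.1 and 59.3 (2.58 ± 0.28), and Rnf213, a RING protein with a coding sequence of 15450 nt, 3111 and 2304 against 456 and 611 (2.17 ± 0.21). The collagen Col7a1 was the highest of the matrix genes at 174 and 128 against 19.6 and 42.2 (2.17 ± 0.27).

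Base composition of the coding sequence was a further difference. From the lowest to the highest quintile of coding GC the medians were 0.734, 0.870, 1.02, 1.15 and 1.37. Within 5' UTRs of 200 nt or more they went from 0.540 below 45% GC (436 members) to 0.914 above 55% (1168), and within 5' UTRs under 100 nt from 1.07 (231) to 1.78 (1077). Base composition of the 5' UTR itself showed no such order, with medians between 0.943 and 1.06 over its quintiles. The coding sequence was found in the annotation for 8247 members and the 5' UTR for 7544, which limits these values.

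Upstream ATGs went with lower values, from 1.13 with none (4056 members) to 0.795 with 4 or more (716). At 5' UTRs of 200 nt or more the order turned, with 0.644 for none (734) and 0.789 for 4 or more (682). A run of 4 GGC or CGG triplets, a motif linked to eIF4A dependence, was present in 253 of the 7224 5' UTRs searched, and these had a median of 0.717 against 1.00 for the others. Their median 5' UTR was 263 nt, against 164 nt. A C followed by 4 pyrimidines at the 5' end, as in TOP mRNAs, was annotated in 142 members, whose median was 1.07. Members with 1 exon had 1.73 (177) and those with 10 or more 0.882 (4398). The members with 1 exon include the intronless histones described above, and the median without them was not computed.

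Control level also moved with the result. With the level taken from the first control library and the remaining footprints computed against the second, the medians of the quintiles went from 1.25 in the lowest to 0.789 in the highest. Control footprints per transcriptome read, an estimate of translation efficiency, had no steady order across quintiles, with medians between 0.927 and 1.08. The parts of coding length, GC and level that overlap with that of the 5' UTR cannot be told apart here beyond the bins given.

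Spearman correlations with relative remaining footprints over all members were -0.43 for 5' UTR length, -0.24 for coding length and -0.21 for control level. For coding GC the correlation was 0.30 over the 8247 members with a located coding sequence. The control level also divides the remaining footprints, so that a negative sign is partly built in. The correlations describe the members, which share libraries. With harringtonine the correlation with 5' UTR length was -0.22 and with coding length -0.52. With puromycin the correlations were -0.02 and -0.62. These drugs were compared with the same 2 control libraries, so the values stand side by side and are not independent.

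Several families kept their spread along the 5' UTR. Zinc finger proteins had 1.31 under 100 nt (29 members), 0.877 at 100 to under 200 nt (39) and 0.666 from 200 nt on (73). For solute carriers the medians were 1.35 (34), 0.783 (35) and 0.686 (56), and for Tmem proteins 2.11 (25), 1.05 (32) and 0.805 (37). Chromatin methyltransferases, demethylases and remodellers went from 1.40 (18) through 0.827 (11) to 0.672 (33). Mitochondrial ribosomal proteins and the respiratory chain did so less, with 2.03 and 1.97 under 100 nt, 1.19 and 1.12 at 100 to under 200 nt, and 1.52 and 1.84 from 200 nt on (13 and 11 members).

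At both ends of the range, layout and the share of some families were far from those of all members. Of the 400 members that kept most, 265 (66.3%) had a 5' UTR under 100 nt, against 21 (5.25%) of the 400 that kept least and 30.7% of all members. A 5' UTR of 200 nt or more was found in 17.0%, 77.5% and 40.1%. The highest 400 held 43 histones and 13 mitochondrial ribosomal proteins, and the lowest 400 held 0 and 1. All 8532 members held 50 and 69. Control levels also differed, with median control footprints of 269 in the highest and 635 in the lowest 400. Conversely, 14 Zfp-named zinc finger proteins were among the lowest and 5 among the highest, of 141 among all members. Solute carriers, 125 of all members, differed little between the ends, with 4 among the lowest and 3 among the highest.

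The 12 members with the highest fitted relative log2 change, past the test with both libraries on one side, held 7 replication-dependent histones, 1 transcript without a symbol in the annotation, Ahnak, Mid1, Triap1 and Otud6b. Mid1, a microtubule-associated RING ubiquitin ligase with a 5' UTR of 302 nt, had 151 and 145 footprints in the control and 54.9 and 66.6 with the drug (3.22 ± 0.24, edgeR adjusted p = 5.8e-09). Triap1, a small inhibitor of apoptosis in mitochondria, had 136 and 167 against 44.8 and 69.8. Otud6b, a deubiquitinase of the OTU type, had 151 and 87.9 against 34.1 and 55.2. Among the histones, Hist1h2ab had unequal controls of 3698 and 818 against 775 and 1062 with the drug. Its second control thus lay within the range of the drug libraries on the spike-in scale.

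The 12 with the lowest fitted relative log2 change, taken among members with a mean control of at least 500, all kept under 1% of their control footprints in the mean of both libraries. Naa50, an N-terminal acetyltransferase (chromosome 16, 44139830 to 44162474, 6 exons), had 1654 and 1468 in the control and 8.21 and 6.49 with the drug, which rest on 13 and 8 reads (-3.18 ± 0.32, edgeR adjusted p = 3.0e-07). Trim28, also known as KAP1, a corepressor of retroelements and imprinted loci (chromosome 7, 13024152 to 13031035, 17 exons), had 46175 and 42215 against 306 and 350, on 484 and 431 reads (-2.55 ± 0.21, adjusted p = 2.6e-08). Also among the 12 were Zfp57, a zinc finger protein that protects imprints together with Trim28, with 2384 and 2252 against 10.1 and 16.2 (-2.98 ± 0.27), and Resf1, a factor in silencing of retroelements, with 2620 and 2094 against 11.4 and 25.2 (-2.56 ± 0.24). The others were Aar2, a factor in assembly of the U5 snRNP, Cnn3, a calponin, Klhl13, an adaptor of a cullin ubiquitin ligase, the imprinted Mest, Nexmif, Rab2a, a GTPase of traffic between ER and Golgi, Bex3 and Jade3. Of these 12, 10 had a 5' UTR of over 200 nt, the exceptions being Klhl13 with 172 nt and Mest with 44 nt.

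**Figure D4:**
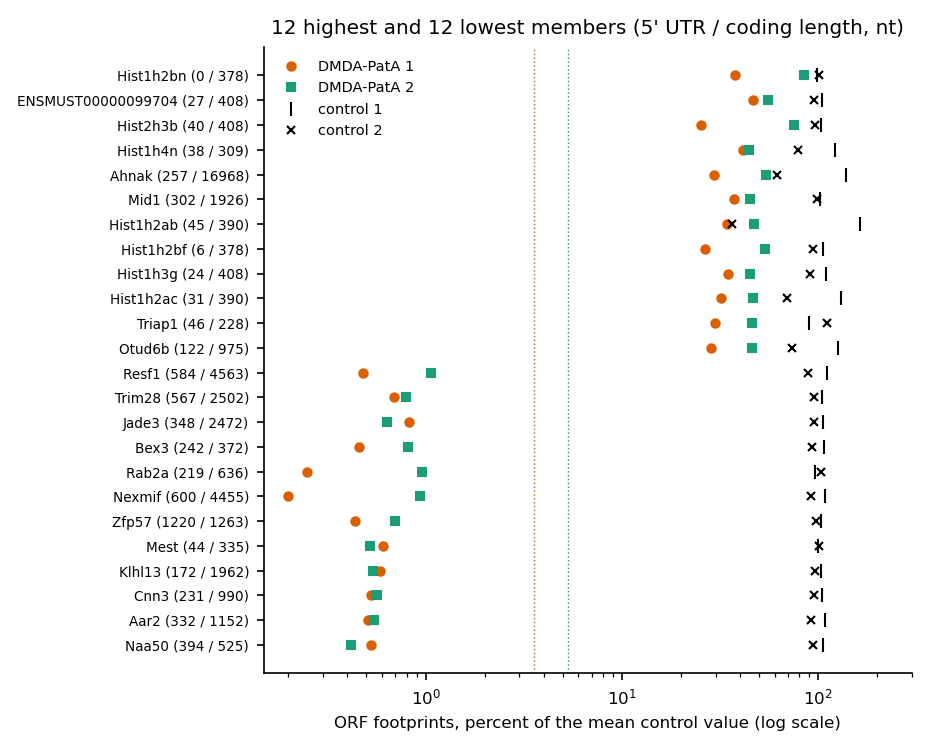
ORF footprints as percent of the mean control value (x axis, log scale) in the 2 control and 2 DMDA-PatA libraries for the 12 highest and 12 lowest members, with 5' UTR and coding length in nt beside the name. Dotted lines mark the median member of each DMDA-PatA library, at 3.58% and 5.29%; Hist1h2bn, at 61.1% in the mean of both drug libraries, and Naa50, at 0.471%, are the extremes.

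The start codons of 4 members from each end are shown with 10 bases before and 1 base after the ATG, which stands in capitals, since this is where scanning ends. They are the most extreme named members whose annotated start codon lies at the listed position. Sequences are 5' to 3' on the sense strand of the GENCODE M21 transcripts of build GRCm38. Of these, the 4 that kept most were as follows.
Hist2h3b: tcgcaaaaatATGg
Hist1h4n: tgtcttcatcATGt
Ahnak: tcctgcaaagATGg
Mid1: ttgcctgaagATGg
The 4 that kept least were as follows.
Naa50: caatgatggaATGc
Aar2: cactggcttcATGt
Klhl13: tggtgacaacATGc
Zfp57: ttaccaaacaATGg
Over all members with a located start, a G after the ATG went with a median of 1.08 (4468 members) and an A with 0.858 (1524), and a G or A 3 bases before it with 1.04 (3208) and 0.946 (3824). These medians differed less among themselves than those of the 5' UTR length bins.

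Footprints on the 5' UTR behaved unlike those on the ORF. Their share of all reads on coding transcripts was 3.98% and 4.25% in the control libraries and reached 37.3% and 37.7% with the drug. Among 2948 members with at least 20 control footprints on the 5' UTR, the median inhibition there was 2.50 and 1.61 fold in the 2 libraries, and in 447 (15.2%) the values with the drug were above the mean control in both. On the 3' UTR, 342 members with at least 20 control footprints had a median inhibition of 9.39 and 7.52 fold. These fold values, and the comparisons with control levels on the 5' UTR here and below, use the deposited spike-in factors. The exchanged factors, which were not settled above, were not run for the UTRs and would change them. The share of a transcript's footprints on the 5' UTR rose in 5242 of 5421 members tested (edgeR quasi-likelihood test of the interaction, adjusted p below 0.05), against 93.6% of the 6497 transcripts tested, and fell in 2 (against 0.139%). The files give no 5' UTR value for the last 10 nt before the start codon.

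**Figure D5:**
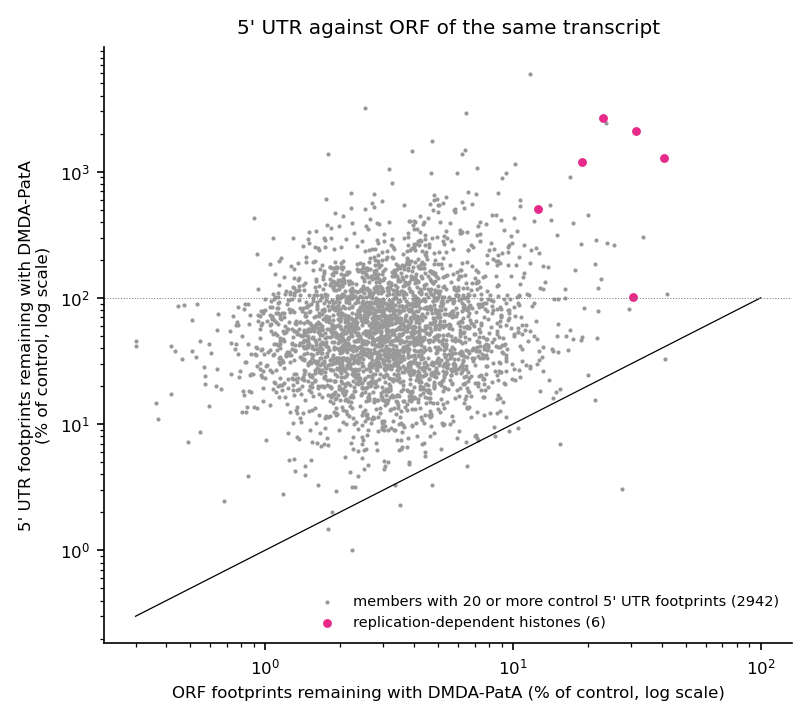
Footprints remaining with DMDA-PatA, as percent of the mean control value, on the ORF (x axis, log scale) and the 5' UTR (y axis, log scale) of the same transcript for the 2948 members with at least 20 control footprints on the 5' UTR. A few values below the lowest plotted level are drawn at that level, and the dotted line marks the control. Most points lie above the line of equal values, and the 2 measures are weakly related (Spearman 0.118 with relative ORF values).

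Unlike ORF footprints, 5' UTR footprints kept falling with 5' UTR length. The median fraction remaining was 1.04 of the control from 50 nt to under 100 nt (139 members) and 0.869 from 100 nt to under 200 nt (724). It was 0.584 in the bin from 200 nt (733), 0.423 in that from 300 nt (838) and 0.294 in that from 500 to under 1000 nt (430). It was 0.823 without an upstream ATG (848) and 0.399 with one (1722). By family, values above the mean control in both drug libraries were found in 18 of 27 respiratory chain transcripts, 8 of 14 of the proteasome and 6 of 10 immediate early genes, with medians of 1.67, 1.78 and 1.81. The highest median, 12.3, was that of histones, 5 of 6 of which lay above. In Wnt, Fgf, Tgf-beta and Notch ligands and receptors the median was 0.184 over 19.

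Among members with a mean of at least 50 control reads on the 5' UTR, those whose 5' UTR share rose most included Tardbp, S100a6 and Hsp90b1. Tardbp, which encodes the RNA-binding protein TDP-43, had 50.7 and 59.8 footprints on its 5' UTR of 353 nt in the control and 633 and 887 with the drug, a log2 change of 9.55 ± 0.37 against its ORF (edgeR adjusted p = 5.7e-13). For S100a6, a calcium-binding protein, the 5' UTR values were 86.1 and 77.1 against 753 and 1606. Hsp90b1, the ER chaperone Grp94, had 69.6 and 76.1 against 432 and 450. In all 3, both drug libraries were above both controls on the 5' UTR, while ORF footprints fell. The opposite was seen for Kmt2d, where 86.1 and 35.4 on the 5' UTR went to 1.26 and 2.44 while the ORF kept 27.5% (-3.03 ± 0.64, adjusted p = 1.7e-04). A read was worth 0.631 and 0.812 in the 2 DMDA-PatA libraries, so these low values rest on very few reads.

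Values with the other inhibitors set the families of DMDA-PatA in context, again against the same controls. Histones had medians of 9.68 with harringtonine and 8.53 with puromycin, against 5.75 with DMDA-PatA. Selenoproteins were at 2.75 and 2.83, against 2.83, and the respiratory chain at 1.95 and 1.98, against 1.68. For mitochondrial aminoacyl-tRNA synthetases, 1.60 with DMDA-PatA stood beside 0.797 and 0.701, and for TOP mRNAs 0.760 beside 1.44 and 1.51. Coding sequences over 8000 nt had 0.688 and 0.354, against 1.24, and 5' UTRs from 500 nt to under 1000 nt had 0.732 with harringtonine and 1.01 with puromycin, against 0.720. Rab GTPases, at 0.788 with DMDA-PatA, had 1.48 and 1.66. The mitochondrial synthetases, the TOP mRNAs, the Rab GTPases and the longest coding sequences thus lay on the other side of 1 with DMDA-PatA than with both other inhibitors. This was not particular to them. The eIF4F components and cofactors, at 0.891 with DMDA-PatA, had 1.79 with harringtonine and 1.84 with puromycin. Cadherins and protocadherins, at 1.25, had 0.662 and 0.463, and further lists crossed 1 as well. These differences between inhibitors were not tested.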

How the data were processed

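The authors aligned SOLiD reads to mm10 (GRCm38) with LifeScope, left out reads with multiple matches, and deposited for each transcript a signal, the reads on the ORF, 5' UTR and 3' UTR scaled to equal spike-in reads. Within a library all values (100%, tolerance 0.001) were multiples of what 1 read was worth, so that read counts were recovered by division and tested with the spike-in size factors.

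Transcripts reaching 10 ORF reads in 2 or more libraries were fitted with edgeR 4.0.16 (quasi-likelihood, R 4.3.3) over the 8 ribosome profiling libraries, on the spike-in scale and relative to the median coding transcript, and 5' UTR against ORF with library as block. P-values were adjusted by Benjamini-Hochberg over all features tested. Alternatives used other scalings and filters, exchanged size factors of DMDA-PatA and harringtonine, DESeq2 1.42.0 and, added after the data were seen, limma 3.58.1 on log2(value + 1). Other steps used Python 3.11.15 and pandas 2.3.3. The fits were tested on simulated data.

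Symbols, positions and sequences came from GENCODE M21 (GRCm38), matched for 8480 of 8532 members. Members, 48 gene lists and tests were chosen with earlier results of these data known. Among the genes named are the 12 highest and 12 lowest members by fitted relative log2 change past the test (the lowest at a mean control of at least 500), the extremes of each list, the drug target with partners, cell type markers, and the 4 largest 5' UTR changes each way at 50 or more control 5' UTR reads, of which 1 is not reported here. At the threshold of 100, the members just inside were Gm10250 and Myl7 at 100.0, and Fam20b at 99.9 and Tmx2 at 99.8 lay just outside. Harringtonine and puromycin columns entered the fits, and otherwise these and the transcriptome columns were used only where named.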

Additional observations from a re-analysis of the deposited data

How the results depend on the processing

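Counts of calls changed with the scaling and with 1 library left out. Members lower relative to the median coding transcript ranged from 1155 to 1532 and members higher from 1450 to 1859 over the 4 fits that left out a library, both lowest without the second DMDA-PatA library, against 1958 and 2227 with all. On the spike-in scale the same fits gave 8451 to 8532 members lower, and the exchanged size factors 8532. With TMM on ORF reads, which takes out the common decrease, 2816 members were lower. With the replicate number as a block, 8530 members were lower on the spike-in scale, 2231 higher and 1974 lower relative to the median, and 5231 had a higher 5' UTR share. No label says what the numbers mark, and deviations of same-numbered control and DMDA-PatA libraries correlated at 0.0745 across members. DESeq2 gave 1988 higher and 1648 lower, and limma, added after the data were seen, 1926 and 1821. Equal total reads gave 1877 and 2360. A fit on only the control and DMDA-PatA libraries gave 2460 higher and 2199 lower. The ratio of medians along the 5' UTR kept within 1 SD of the 2 libraries in every setting, as did that along coding length. Of 470 family medians under other settings, 312 moved by less than the SD of the 2 libraries. Eif4e, without a direction in the report, had a relative log2 change of 0.0049 with the replicate block and of -0.38 to 0.27 over the fits without a library, including 0.10 without control 1. Depth limits the lowest members, some with under 10 reads in a DMDA-PatA library.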
